A study of Mus musculus with 16 samples.

Results

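Finasteride moved 430 genes the same way in wild-type and mutant mouse prostate, out of 16506 genes tested and 29535 in the deposited table. All 16 libraries were used, and a gene was tested when its mean log2 value over them was at least 3.32. The quantity described is the mean of the finasteride effects in the 2 genotypes, each effect being the log2 level on finasteride minus that on vehicle. A gene counted as moved the same way when limma's adjusted p (Benjamini-Hochberg over all genes tested) was under 0.05 for each genotype and for the mean, with 1 sign. Adjusting the larger of the 2 genotype p-values instead left 35 genes. At the expression threshold, Slc3a1 lay just outside with a mean log2 value of 3.3196 and Gm16325 just inside with 3.3206.

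The libraries came from poly-A selected prostate RNA of mice aged 12 months with a hybrid 129/SvImJ and C57Bl/6J background. Both vehicle groups, +/+ wild type and -/- mutant for 1 gene, held 3 libraries, and both finasteride groups held 5. The dose and length of treatment, the cells in which the mutation acts and whether each library is a separate animal were not given in the sources used here. The p-values therefore measure only the spread between these samples, which may be technical. Read depth is unknown, because the table holds normalized values and no counts.

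Finasteride blocks 5-alpha-reductases, the enzymes that make dihydrotestosterone, the strongest natural androgen, from testosterone. In the prostate androgens act on luminal epithelium, where they drive secretory genes, and on stroma, which signals to the epithelium. Loss of androgen is known to shrink the gland, to lower secretion and division of luminal cells, and to leave stromal cells as a larger part of the tissue. In bulk tissue, fewer cells of a type and less RNA per cell cannot be told apart.

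Few effects were common to both genotypes. The mean effect passed in 3917 genes, of which 1777 were higher on finasteride (10.8% of those tested) and 2140 lower (13%); with each library centred on its median the split was 1417 and 2667. In wild type alone 3034 genes were higher (18.4%) and 3585 lower (21.7%), and in the mutant 4236 were higher (25.7%) and 3760 lower (22.8%). Under quantile normalization these splits became 3695 and 2678 in wild type and 3295 and 4651 in the mutant. Of the 3917 genes called for the mean, 430 moved the same way in both genotypes, 142 upward (0.86% of genes tested) and 288 downward (1.74%). A further 435 moved in opposite ways, 983 passed in wild type alone, 1971 in the mutant alone and 98 in neither. Over all tested genes 3310 moved in opposite ways (20.1%), and the effects differed between genotypes in 9339 (56.6%, interaction term). The same sign was seen in 32.5% of tested genes.

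Among the 430 genes the median effects were moderate and of similar size in both genotypes. The same threshold and the same standard error of a gene applied to both genotypes, which favours similar medians. The medians therefore do not show that single genes moved by the same amount. The median wild-type and mutant effects were 0.48 and 0.48 log2 among the 142 that rose, and -0.46 and -0.52 among the 288 that fell. Over all tested genes the median mean effect was 0.01. Both effects exceeded 1 log2 unit in 10 genes that rose and 29 that fell. Finasteride and vehicle libraries did not overlap in either genotype in 94 of the 142 and 226 of the 288, a share that choosing genes called in both genotypes raises. The 15 risers and 15 fallers named by rule had to show no overlap, so their separation reported below was fixed by that choice. Among all tested genes every finasteride library lay above every vehicle library in both genotypes in 0.909%, and below in 2.14%. The interaction was called in 60 of the 430, with the larger effect in wild type in 16 and in the mutant in 44.

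**Figure D1:**
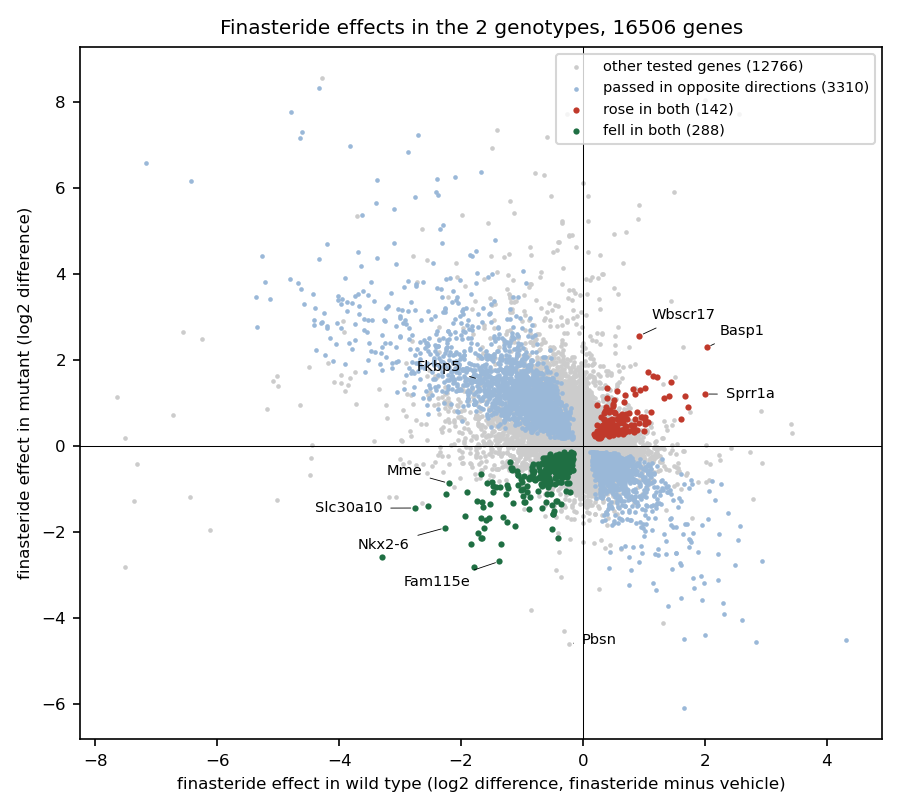
Finasteride effect in the mutant (vertical axis, log2) against that in wild type (horizontal axis, log2) for the 16506 genes tested, each point 1 gene, with genes that rose or fell in both genotypes and genes that moved in opposite ways coloured. The 430 genes moved the same way lie in the upper right and lower left, and the 3310 moved in opposite ways lie in the other corners.

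Libraries of the same group differed in ways that touch these calls. The profiles of 5 libraries (wild-type vehicle 3, wild-type finasteride 4, mutant vehicle 3 and mutant finasteride 3 and 4) were close to mixtures of 2 others of their group, with residuals of 0.0764 to 0.0977 against 0.1211 to 0.4017 for the other 11. The epithelial markers Krt8 and Krt18 and the prostate transcription factor gene Hoxb13 were present in every library. Svs2, a seminal vesicle secretory protein, had log2 levels of 19.94 and 18.60 in wild-type vehicle libraries 1 and 3 against 8.01 in library 2. In the mutant finasteride group Svs2 was between 20.06 and 21.17 in libraries 1, 3, 4 and 5 and 11.52 in library 2. Other seminal vesicle genes went only partly with Svs2 in that group. Svs5 was 17.91 to 19.04 in libraries 1, 3, 4 and 5 and 13.04 in library 2. Svs4 was 14.57 to 16.06 against 16.25 in library 2, and 16.02 to 17.27 in mutant vehicle. Svs1 was 4.13 to 5.29 in libraries 1, 3, 4 and 5, against 18.70 and 17.36 in wild-type vehicle libraries 1 and 3. Sbp, a ventral prostate secretory protein, was 9.95 and 10.39 in wild-type finasteride libraries 1 and 5 and 18.34 to 19.36 in the other 3. Whole groups differed too. In the mutant Sbp was 6.02 to 8.98 on vehicle and 15.91 to 16.61 on finasteride. Msmb, another secretory protein, was 15.73 to 16.39 and 8.65 to 13.62 in wild type, and 9.29 to 9.90 and 12.89 to 13.06 in the mutant. Tgm4, also secreted, was 18.49 to 18.91 and 19.42 to 19.74, and 18.81 to 19.14 and 15.62 to 17.00. The summed log2 level of 10 seminal vesicle genes ran from 10.15 to 21.78 in wild-type vehicle, 9.65 to 14.39 in wild-type finasteride, 16.74 to 18.07 in mutant vehicle and 16.77 to 21.54 in mutant finasteride. The part of neighbouring tissue and prostate lobes in the results was not tested.

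The count of 430 was therefore set beside stricter ones. Over the 11 libraries that were not mixture-like, 7 genes rose (0.0424%) and 32 fell (0.194%), all 39 of them among the 430. With the 6 libraries of high Svs2 left out, 9 rose (0.0545%) and 26 fell (0.158%), of which 23 were among the 430; this left 1 wild-type vehicle and 1 mutant finasteride library, assumed to vary like the other groups. Adjusting the larger of each gene's genotype p-values over all genes left 4 that rose (0.0242%) and 31 that fell (0.188%), all among the 430. A threshold of 0.05 in each genotype alone does not bound the false share among genes called in both. Genes said below to have risen or fallen in both genotypes met the main definition, and most of the 430 did not pass this stricter one. Without wild-type vehicle library 1 the count was 264, without wild-type vehicle library 3 it was 282, and without mutant vehicle library 2 it was 283. Of the 430, 235 kept the call under quantile normalization and 282 under median centring. The sign was kept in both genotypes by all 430 genes over the 11 libraries and by 424 without the 6 libraries of high Svs2. Exactly 13 genes met every condition (0.0788%). Wbscr17, Sprr1a and Basp1 rose; Nkx2-6, Lyz1, Slc4a4, Lingo1, Flrt3, Yeats2, Nin, Mme, Tmem64 and Mcur1 fell. These 13, singled out after their values were seen, also kept the call without any single library, under quantile normalization and under median centring.

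The targets of the drug did not move together. Srd5a2, the main 5-alpha-reductase of the prostate, had log2 levels of 7.61, 7.33 and 7.73 in wild-type vehicle libraries and 5.63 to 6.76 on finasteride, a fall of -1.33 ± 0.20 (SE, adjusted p = 0.000224). In the mutant Srd5a2 went from 6.43 to 6.53 on vehicle to 6.91 to 7.53 on finasteride, a rise of 0.85 ± 0.20 (adjusted p = 0.00285). The groups did not overlap in either genotype, and the directions were opposite. Srd5a1, the other finasteride-sensitive family member, had effects of -0.27 ± 0.13 in wild type (adjusted p = 0.0915) and 0.34 ± 0.13 in the mutant (adjusted p = 0.0334). The mean effect on Srd5a3, a related polyprenol reductase, was -0.03 ± 0.06 (adjusted p = 0.748).

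Of 10 steroid and related hormone receptors, 7 were lower in the mean effect, beside 13% of all tested genes, and none higher. The list median was -0.40 beside 0.01 for all tested genes, with -0.56 in wild type and -0.18 in the mutant. The sign differed between genotypes in 5 of the 10, while 32.5% of all tested genes had the same sign. Of genes called in opposite ways, 1 rose in wild type and 2 rose in the mutant, beside 20.1% of all tested genes. Restriction to the 11 libraries left 1 lower, and leaving out the libraries of high Svs2 left 3.

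Prlr, the prolactin receptor, was the 1 member of that list of 10 to fall in both genotypes, beside 1.74% of all tested genes. Its log2 level was 13.54, 13.12 and 13.39 in wild-type vehicle libraries 1 to 3 and 12.31, 12.74, 12.82, 12.84 and 12.90 in wild-type finasteride libraries 1 to 5. In the mutant it was 13.20, 13.27 and 13.22 on vehicle and 12.35, 12.09, 12.43, 12.34 and 12.52 on finasteride. Every finasteride library lay below every vehicle library of its genotype. The effects were -0.63 ± 0.13 in wild type (adjusted p = 0.00177) and -0.89 ± 0.13 in the mutant (adjusted p = 6.11e-05). Over the 11 libraries the call in both genotypes was lost (limma adjusted p = 0.0619 in wild type). The larger of its 2 genotype p-values, adjusted over all genes, was 0.0765. Without the libraries of high Svs2 the mean effect of Prlr was -0.77.

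Mme, which encodes neprilysin, a cell-surface peptidase regulated by androgen in prostate, fell in both genotypes. It was the only 1 of 42 androgen response genes to do so, beside 1.74% of all tested genes. Wild-type levels were 14.40, 14.05 and 14.29 on vehicle and 11.79, 12.51, 12.10, 12.01 and 11.82 on finasteride. Mutant levels were 13.80, 14.04 and 13.93 on vehicle and 13.03, 12.92, 13.05, 13.04 and 13.19 on finasteride. The groups were separate in both genotypes, with effects of -2.20 ± 0.14 in wild type and -0.88 ± 0.14 in the mutant, the larger in wild type (interaction 1.33, adjusted p = 4.81e-05). In the whole list 3 genes were higher and 13 lower in the mean effect, beside 10.8% and 13% of all tested genes, with a median of -0.09. None was higher and 3 were lower over the 11 libraries, and without the libraries of high Svs2 none was higher and 5 were lower. Opposite moves were seen in 17 of the 42, beside 20.1% of all tested genes. Pbsn, the androgen-dependent secretory protein probasin, fell in the mutant by 4.61 log2 units and had a wild-type effect of -0.22 ± 0.22 (adjusted p = 0.448). Fkbp5, a chaperone induced by steroid receptors, fell by 1.70 in wild type and rose by 1.54 in the mutant.

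Smaller falls were seen in both genotypes for Foxa1, a pioneer factor that opens chromatin in prostate epithelium. Its effects were -0.32 ± 0.09 in wild type (adjusted p = 0.0101) and -0.30 ± 0.09 in the mutant (adjusted p = 0.0106); under quantile normalization the mutant effect was -0.08 and the call in both genotypes was lost. Slc45a3, the prostate-restricted transporter prostein, picked after its values were seen, fell by 0.61 in wild type and 0.39 in the mutant; its mean effect was -0.50 with all libraries and -0.32 without those of high Svs2. Under quantile normalization its mutant effect was -0.16 and the call was lost. Among 23 prostatic secretory proteins 10 were lower and 1 higher in the mean effect, beside 13% and 10.8% of all tested genes. The list median of -0.46 stood between -1.48 in wild type and 0.10 in the mutant. Over the 11 libraries 2 were lower, and without the libraries of high Svs2 the median was -0.15. The unnamed model 9530002B09Rik was the single member to fall in both genotypes, beside 1.74% of all tested genes. Its effects were -0.50 ± 0.16 in wild type and -1.59 ± 0.16 in the mutant. Under quantile normalization its wild-type effect was 0.14 and the call was lost.

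The clearest riser was Wbscr17, of the polypeptide N-acetylgalactosaminyltransferase family that starts mucin-type O-glycans. Wild-type levels were 9.27, 9.22 and 9.17 on vehicle and 10.32, 10.02, 10.18, 10.14 and 10.07 on finasteride. Mutant levels were 5.88, 5.80 and 5.71 on vehicle and 8.31, 8.38, 8.35, 8.40 and 8.31 on finasteride. No library overlapped with the other treatment, as the naming rule required, and mutant finasteride libraries stayed below wild-type vehicle. The rise was 0.93 ± 0.07 in wild type (adjusted p = 2.24e-06) and 2.56 ± 0.07 in the mutant (adjusted p = 5.73e-12), larger in the mutant by 1.63 (interaction adjusted p = 3.38e-08).

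Basp1, a membrane-bound signal protein first known from growing nerve endings, had the largest mean effect of the 142 genes that rose, 2.16 ± 0.26. Levels were 7.63, 9.32 and 8.95 in wild-type vehicle libraries 1 to 3 and 10.40, 10.64, 10.97, 10.74 and 10.58 on finasteride. In the mutant they were 5.95, 5.97 and 6.05 on vehicle and 8.87, 7.13, 8.54, 8.68 and 8.15 on finasteride. The 2 low wild-type vehicle libraries were those with high Svs2, and mutant finasteride library 2, with low Svs2, was the lowest of its group. Without the 6 libraries of high Svs2 the mean effect of Basp1 was 1.24.

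Sprr1a, a precursor of the cornified envelope that squamous and injured epithelia make, rose from 6.32, 6.50 and 6.20 to 8.74, 7.77, 8.28, 8.38 and 8.53 in wild type. In the mutant it rose from 8.59, 8.45 and 8.63 to 9.48, 10.26, 9.50, 9.76 and 9.78. Every finasteride library was above every vehicle library of its genotype, and the mutant on vehicle was at the level of wild type on finasteride. The effects were 2.0 ± 0.19 in wild type (adjusted p = 1.13e-05) and 1.20 ± 0.19 in the mutant (adjusted p = 0.000136), larger in wild type (interaction -0.80, adjusted p = 0.0207).

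The promoter of Sprr1a is shown because the gene is one of the 13 and its promoter holds AGAACA, the core of the androgen response element, read here as its reverse complement. It lies at chr3:92485832-92486131 (GRCm38.p6, minus strand), 250 bases before to 50 after the RefSeq start, and capitals mark the match, whose first base is 52 bases before the start. Sequence from RefSeq, 5′ to 3′:
Sprr1a: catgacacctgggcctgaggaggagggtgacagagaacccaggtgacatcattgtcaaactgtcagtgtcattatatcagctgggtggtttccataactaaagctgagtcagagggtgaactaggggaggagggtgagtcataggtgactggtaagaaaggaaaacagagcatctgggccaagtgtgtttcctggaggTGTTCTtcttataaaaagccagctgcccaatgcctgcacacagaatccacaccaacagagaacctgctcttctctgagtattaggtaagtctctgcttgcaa

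A match is a description and not a binding site. This motif was present on either strand in 15 of 106 promoters of genes that rose (14.2%), in 30 of 213 of genes that fell (14.1%), in 15.2% of promoters of all tested genes and in 21.3% of all promoters.

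Emcn, Ldhb and Slc27a3 rose in both genotypes as well. Emcn, an endothelial sialoglycoprotein, had levels of 7.0, 8.33 and 7.99 in wild-type vehicle and 8.98 to 9.34 in wild-type finasteride libraries. In the mutant Emcn was 6.32 to 6.39 on vehicle and 7.05 to 7.74 on finasteride, so that groups did not overlap, and its mean effect was 1.28 ± 0.16 (adjusted p = 8.71e-05). Ldhb, a lactate dehydrogenase subunit, rose by 1.14 ± 0.26 in wild type and 1.63 ± 0.26 in the mutant. Slc27a3, of the fatty acid transport and acyl-CoA synthetase family, rose by 1.61 ± 0.15 in wild type and 0.62 ± 0.15 in the mutant, the larger in wild type (interaction -0.99, adjusted p = 0.0013). Without the libraries of high Svs2 the mean effects of Emcn and Ldhb were 0.77 and 0.71, and that of Slc27a3 was 0.87. Under quantile normalization the mutant effect of Slc27a3 was 0.12 and the call in both genotypes was lost.

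Further genes named by rule rose in both genotypes. Slc34a2, a sodium-phosphate cotransporter, rose by 0.69 ± 0.21 in wild type and 1.18 ± 0.21 in the mutant. Slc25a47, a mitochondrial carrier, rose by 0.71 and 0.73, and Itih2, a heavy chain of the inter-alpha-trypsin inhibitor, by 0.94 and 1.30 in wild type and mutant. Rasal1, which switches off Ras, rose by 0.68 and 1.01, and Rasl11a, a Ras-like GTPase, by 0.96 and 0.66. Bok, a pro-death member of the BCL2 family, rose by 0.67 and 0.62, Jdp2, a partner of Jun proteins, by 0.86 and 0.62, and the parathyroid hormone receptor Pth1r by 0.62 and 0.59. Asb2, a substrate adaptor of ubiquitin ligases, rose by 0.60 and 0.70. Under quantile normalization Rasl11a, Jdp2 and Pth1r lost the call, with mutant effects of 0.09, 0.16 and 0.07. The mean effects of Itih2 and Bok were 1.12 and 0.64 with all libraries and 0.65 and 0.37 without those of high Svs2.

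Cdkn1a and Cdkn2b, inhibitors of cyclin-dependent kinases, rose in both genotypes. Cdkn1a, which encodes p21, had levels of 7.78, 7.86 and 7.82 in wild-type vehicle and 8.33, 8.37, 8.49, 8.45 and 8.26 in wild-type finasteride libraries. In the mutant they were 7.85, 7.77 and 8.06 on vehicle and 8.41, 8.72, 8.45, 8.57 and 8.44 on finasteride. All finasteride libraries lay above all vehicle libraries. The effects were 0.56 ± 0.09 in wild type (adjusted p = 0.000349) and 0.63 ± 0.09 in the mutant (adjusted p = 5.42e-05). Cdkn2b, which encodes p15 and was picked after its values were seen, rose by 0.61 ± 0.21 in wild type and 0.58 ± 0.21 in the mutant; under quantile normalization its mutant effect was -0.01, and under both scalings the call was lost. Relb, a subunit of NF-kappaB also picked afterwards, rose by 0.57 ± 0.14 in wild type and 1.26 ± 0.14 in the mutant.

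**Figure D2:**
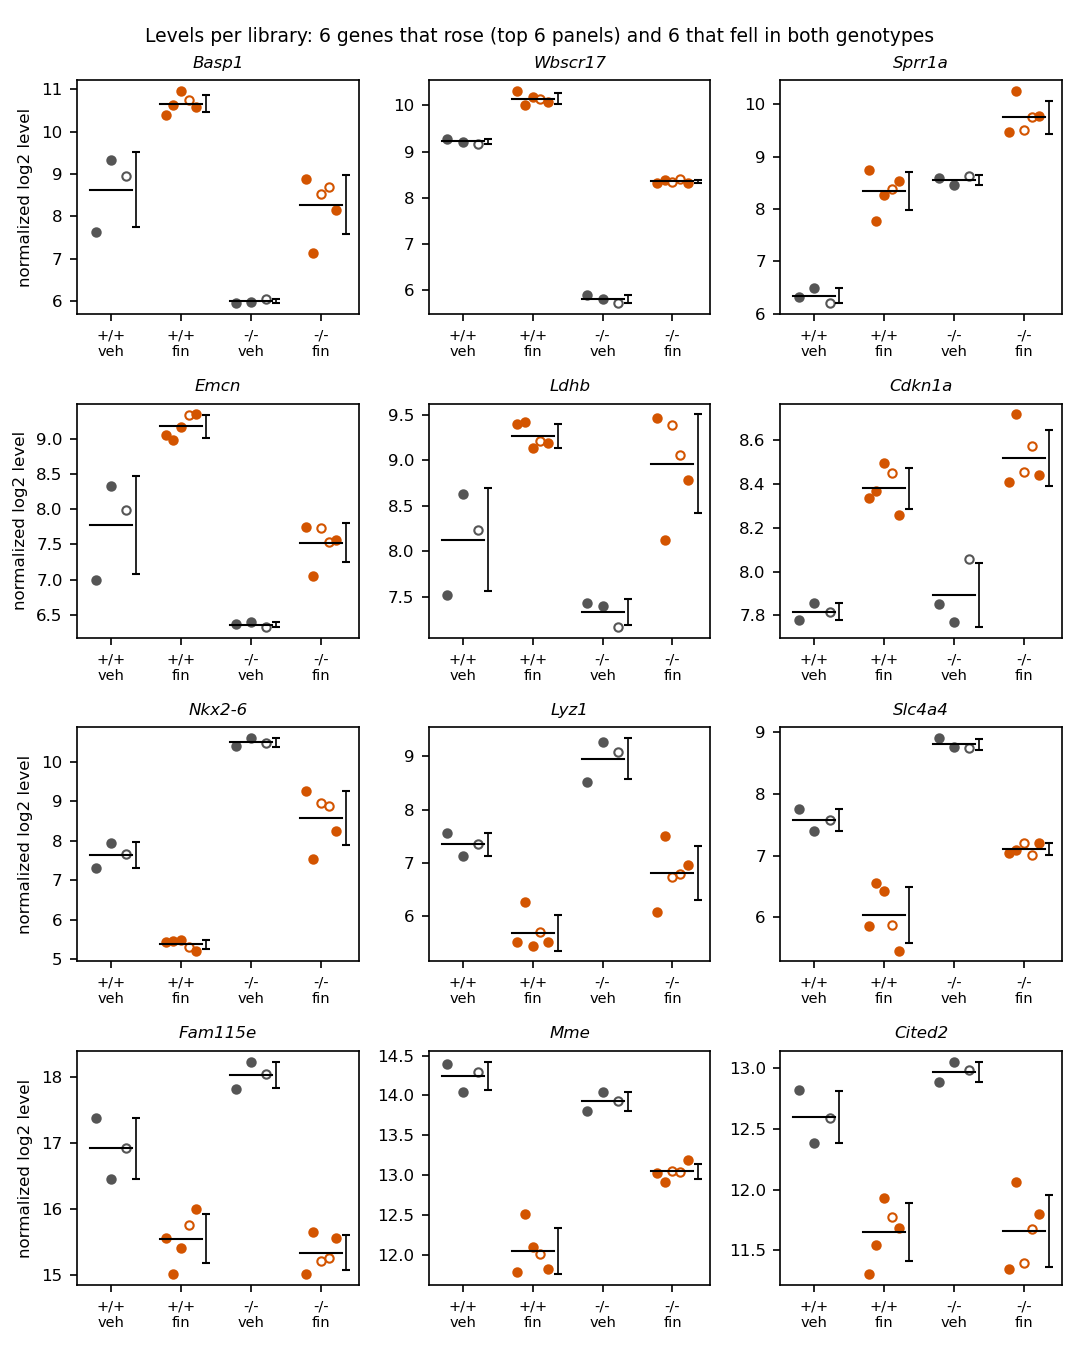
Log2 level (vertical axis) of 12 genes in each of the 16 libraries by group (horizontal axis), 1 point per library, with bars at group means, error bars of 1 SD, and open points for the 5 mixture-like libraries. Finasteride points lie above vehicle points in both genotypes for the upper 6 genes (Basp1, Wbscr17, Sprr1a, Emcn, Ldhb and Cdkn1a) and below them for the lower 6 (Nkx2-6, Lyz1, Slc4a4, Fam115e, Mme and Cited2).

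Among genes that fell, the homeobox transcription factor Nkx2-6 had the largest effect of those named by rule, which ranked genes by the smaller of their 2 genotype effects. Wild-type levels were 7.31, 7.95 and 7.67 on vehicle and 5.44, 5.46, 5.48, 5.31 and 5.22 on finasteride. Mutant levels were 10.39, 10.61 and 10.47 on vehicle and 9.26, 7.53, 8.96, 8.89 and 8.24 on finasteride. The groups were separate in both genotypes, as the naming rule required, and the mutant on vehicle was above every wild-type library. The effects were -2.26 ± 0.28 in wild type (adjusted p = 6.36e-05) and -1.91 ± 0.28 in the mutant (adjusted p = 6.8e-05).

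Lyz1, a lysozyme of mucosal secretions, was 7.56, 7.12 and 7.35 in wild-type vehicle libraries and 5.52, 6.27, 5.44, 5.69 and 5.52 on finasteride. In the mutant it was 8.52, 9.28 and 9.08 on vehicle and 6.07, 7.50, 6.74, 6.78 and 6.96 on finasteride. The groups did not overlap, and the effects were -1.66 ± 0.27 and -2.15 ± 0.27 in wild type and mutant. Lyz1 has a near-identical neighbour in Lyz2, so reads may have been split between them. Lyz1 was the 1 gene of 16 mucosal defence genes to fall in both genotypes, beside 1.74% of all tested genes. In the mean effect 9 of the 16 were higher, beside 10.8% of all tested genes, and 3 over the 11 libraries. The genotypes differed, with list medians of -0.49 in wild type and 2.17 in the mutant. In wild type 1 was higher and 6 lower, beside 18.4% and 21.7% of all tested genes. In the mutant 11 were higher and 3 lower, beside 25.7% and 22.8%.

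Slc4a4, Slc12a8 and Slc30a10, which carry ions or metals across membranes, fell in both genotypes. Slc4a4, a sodium bicarbonate cotransporter, went from 7.76, 7.40 and 7.57 to 5.86, 6.55, 6.42, 5.88 and 5.46 in wild type. In the mutant Slc4a4 went from 8.91, 8.76 and 8.74 to 7.04, 7.09, 7.2, 7.01 and 7.21. Neither genotype had an overlap, and the fall was -1.54 ± 0.19 and -1.69 ± 0.19. Slc12a8, of the cation-chloride cotransporter family, fell by 1.59 and 1.74 in wild type and mutant. Slc30a10, a manganese exporter, had effects of -2.76 ± 0.43 and -1.45 ± 0.43, with levels from 4.68 to 7.57 among wild-type finasteride libraries.

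Genes of the zinc, manganese and copper importers were picked after their values were seen, and moved in both directions. Slc39a8, an importer of zinc and manganese, fell by 0.51 ± 0.08 in wild type and 0.47 ± 0.08 in the mutant, Slc39a11 by 0.42 and 0.66, and the copper importer Slc31a1 by 0.74 and 0.42. Slc39a4, another zinc importer, rose by 1.01 ± 0.22 in wild type and 0.58 ± 0.22 in the mutant. Under quantile normalization Slc39a8 and Slc31a1 lost the call in both genotypes, with mutant effects of -0.23 and -0.20, and under median centring Slc39a4 lost it.

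The Fam115 genes, a family of similar proteins with 3 members tested, known as regulators of the cold and menthol channel TRPM8, fell together. Levels of Fam115e were 17.38, 16.45 and 16.93 in wild-type vehicle and 15.56, 15.02, 15.41, 15.76 and 16.001 in wild-type finasteride libraries. In the mutant Fam115e was 17.82, 18.23 and 18.05 on vehicle and 15.01, 15.66, 15.22, 15.27 and 15.56 on finasteride. No group overlapped with its control, and the fall was -1.37 ± 0.24 in wild type and -2.69 ± 0.24 in the mutant (interaction -1.32, adjusted p = 0.00442). Fam115c fell by 0.98 ± 0.18 and by 1.0 ± 0.18, and Fam115a, picked afterwards, by 0.43 ± 0.09 and 1.28 ± 0.09. How the authors' counting shared reads among these similar genes is not known, so the 3 are not independent.

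Flrt3, a leucine-rich membrane protein that acts in adhesion and fibroblast growth factor signalling, fell by 1.24 ± 0.16 in wild type (adjusted p = 6.69e-05) and 1.77 ± 0.16 in the mutant (adjusted p = 6.7e-07). Lingo1, a leucine-rich membrane protein known from neurons, was 4.31, 5.03 and 4.75 on vehicle and 3.18 to 3.70 on finasteride in wild type. In the mutant Lingo1 was 8.25, 7.96 and 8.19 on vehicle and 5.79 to 5.91 on finasteride. It fell by 1.34 ± 0.17 and 2.29 ± 0.17, more in the mutant (interaction -0.95, adjusted p = 0.00319), and wild-type levels were near the threshold for testing. Plaur, the urokinase receptor, fell by 1.01 and 1.03, and Cadps, a factor of dense-core vesicle release, had effects of -2.53 ± 0.51 and -1.40 ± 0.51, with wild-type vehicle levels from 5.06 to 7.90. Without the libraries of high Svs2 the mean effect of Cadps was -2.92.

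Yeats2, a reader of modified histones, had wild-type levels of 12.98, 12.77 and 12.84 on vehicle and 11.80, 11.78, 11.50, 11.51 and 11.55 on finasteride. In the mutant Yeats2 was 11.29, 11.13 and 11.24 on vehicle and 10.26, 10.18, 10.32, 10.25 and 10.16 on finasteride. The groups were well apart, and the effects were -1.24 ± 0.08 (adjusted p = 4.67e-07) and -0.98 ± 0.08 (adjusted p = 3.26e-07). Ppap2a, a lipid phosphate phosphatase, fell by 1.48 and 1.09, and the inositol phosphatase Inpp5j by 1.74 and 1.30. The guanine nucleotide exchange factor family member Dock3 had effects of -1.11 and -1.88, and Galnt5, another starter of O-glycans, of -0.98 and -1.16. The mean effect of Ppap2a was -1.29 with all libraries and -0.85 without those of high Svs2. Nin, a centrosome protein, fell by 1.25 and 0.91 in wild type and mutant, Tmem64 by 0.86 and 1.20, and Mcur1, a regulator of the mitochondrial calcium uniporter, by 0.46 and 0.61. Cited2, a transcriptional co-regulator picked after its values were seen, was 12.38 to 12.82 on vehicle and 11.30 to 11.93 on finasteride in wild type, and 12.88 to 13.05 and 11.34 to 12.06 in the mutant. Its fall was -0.95 ± 0.16 and -1.32 ± 0.16.

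Immediate early genes, which are transcribed soon after a stimulus, were the listed group with most members that rose in both genotypes. Of 30 tested, 18 were higher in the mean effect and none lower, a share of 60% beside 10.8% of all tested genes, and the list median was 0.38. Opposite moves were seen in 4 of the 30, beside 20.1% of all tested genes. In both genotypes Fos, Egr1, Ier3, Ier5, Dusp1, Zfp36, Maff and Ctgf rose, 8 of 30 beside 0.86% of all tested genes. None of these 8 kept the call in both genotypes over the 11 libraries, or without the libraries of high Svs2. In the mean effect 2 of the list were higher over the 11 libraries, and 7 without those of high Svs2. Under quantile normalization 3 of the 8 kept the call and under median centring 4, and Maff had a mutant effect of -0.05 under quantile normalization.

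Fos, the transcription factor subunit of AP-1, was 6.52, 6.78 and 6.74 in wild-type vehicle and 7.87, 7.55, 7.11, 7.32 and 7.67 in wild-type finasteride libraries. In the mutant it was 7.11, 7.30 and 7.29 on vehicle and 7.65, 7.90, 7.44, 7.59 and 7.60 on finasteride. All finasteride libraries exceeded their vehicle libraries, by 0.83 ± 0.15 in wild type (adjusted p = 0.000835) and 0.40 ± 0.15 in the mutant (adjusted p = 0.0399). Under quantile normalization the mutant effect of Fos was 0.06, and under both scalings its call in both genotypes was lost. Dusp1, a phosphatase that switches off MAP kinases, was 7.85, 7.67 and 7.68 on vehicle and 8.42, 8.80, 8.31, 8.21 and 8.42 on finasteride in wild type. In the mutant Dusp1 was 8.01, 7.99 and 8.02 on vehicle and 8.48, 8.45, 8.39, 8.52 and 8.24 on finasteride. It rose without overlap by 0.70 ± 0.11 and 0.41 ± 0.11; under quantile normalization the mutant effect was 0.27 and the call was lost.

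Others of the list rose as well. Ier3 rose by 0.30 ± 0.10 and 0.67 ± 0.10 in wild type and mutant, and Zfp36, which binds and destabilizes messenger RNAs, by 0.23 ± 0.07 and 0.33 ± 0.07. The transcription factor Egr1 rose by 0.70 and 0.45, Ier5 by 0.37 and 0.46, the small Maf protein Maff by 0.64 and 0.37, and the matrix-associated protein Ctgf by 0.59 and 0.52; these 4 lay outside the rule for naming and were picked after their values were seen. Jun and Cyr61 were higher in the mean effect through 1 genotype each. Jun had effects of 1.53 ± 0.12 in wild type and -0.19 ± 0.12 in the mutant. Cyr61 had effects of -0.12 ± 0.13 and 1.35 ± 0.13.

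**Figure D3:**
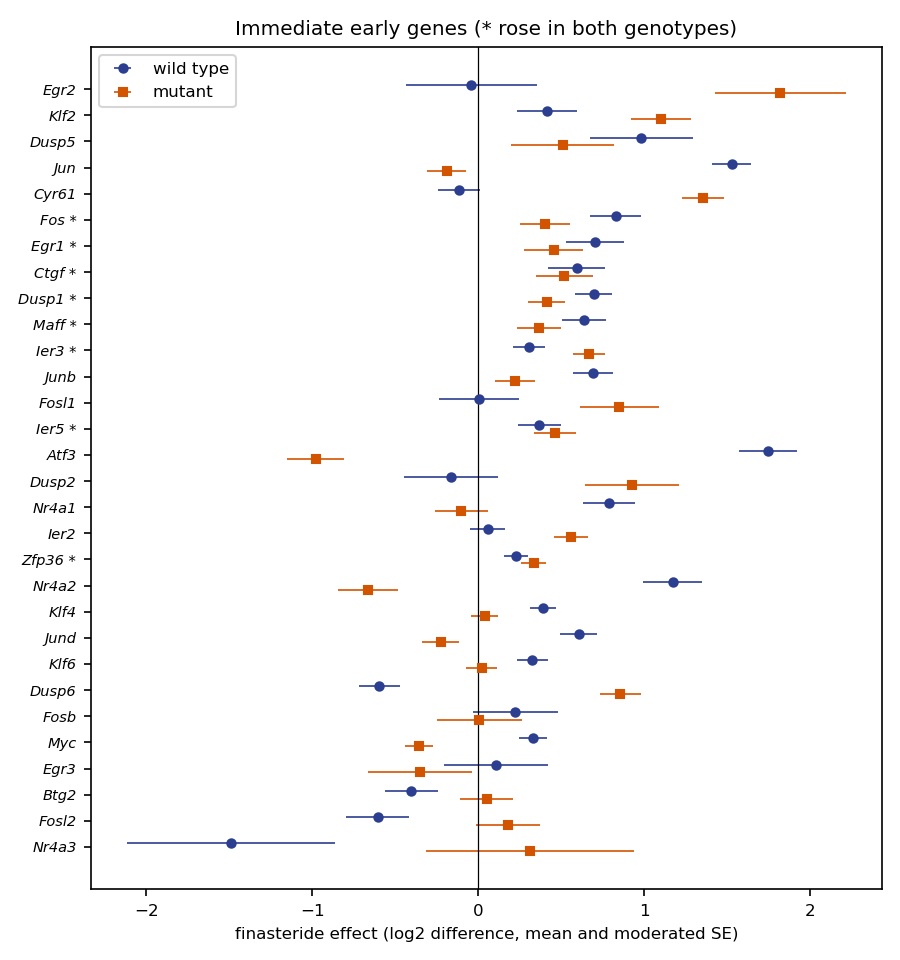
Finasteride effect (horizontal axis, log2, with moderated standard error) per genotype for the 30 immediate early genes tested (vertical axis), with an asterisk at the 8 that rose in both genotypes. Of the 30 genes, 16 lie to the right of 0 in both genotypes, while Jun lies far to the right in wild type alone and Cyr61 in the mutant alone.

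The promoters of Dusp1 and Maff are shown because both hold TGACGTCA, the cyclic AMP response element, close to the start; they were picked after the matches were seen. Both run from 250 bases before to 50 after the RefSeq start in GRCm38.p6. The Dusp1 promoter is chr17:26508423-26508722 (minus strand) with the match starting 143 bases before the start, and that of Maff is chr15:79347270-79347569 (plus strand) with the match 29 bases before. Capitals mark the element, which reads the same on both strands. Sequences from RefSeq, 5′ to 3′:
Dusp1: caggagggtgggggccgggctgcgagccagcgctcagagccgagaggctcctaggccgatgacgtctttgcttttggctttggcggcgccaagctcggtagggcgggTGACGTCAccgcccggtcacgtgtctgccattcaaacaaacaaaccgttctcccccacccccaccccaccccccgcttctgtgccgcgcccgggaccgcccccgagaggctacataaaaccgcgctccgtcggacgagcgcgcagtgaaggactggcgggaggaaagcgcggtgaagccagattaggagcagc
Maff: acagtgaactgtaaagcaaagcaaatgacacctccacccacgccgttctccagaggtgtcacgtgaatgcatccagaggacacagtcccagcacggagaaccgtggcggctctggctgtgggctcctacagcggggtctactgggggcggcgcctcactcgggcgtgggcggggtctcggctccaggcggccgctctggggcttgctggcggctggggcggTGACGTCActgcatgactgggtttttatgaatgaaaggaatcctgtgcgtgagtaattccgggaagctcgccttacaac

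The element was found in 2 of the 6 immediate early genes that rose and had a promoter sequence. It was present in 4 of 106 promoters of all genes that rose (3.77%), 6 of 213 of genes that fell (2.82%), 3.40% of tested genes and 2.03% of all promoters. The heat shock element core was searched on both strands as GAANNTTC and as TTCNNGAA, words that may overlap. The first was in 7.55% of promoters of genes that rose and 5.63% of those that fell, beside 7.01% of tested genes and 9.04% of all promoters. The second was in 10.4% and 6.57%, beside 8.28% and 9.60%.

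Cell division genes were called lower in the mean effect and seldom in both genotypes. Of 38 cell cycle genes tested, 16 were lower in the mean effect and none higher, a share of 42.1% beside 13% of all tested genes, with a list median of -0.39. Over the 11 libraries none passed, and without the libraries of high Svs2 1 did, while the medians were -0.42 and -0.29. The summed log2 level of the list was 12.71 to 12.88 and 12.20 to 12.52 on vehicle and finasteride in wild type, but 12.99 to 13.01 and 13.12 to 13.46 in the mutant. The median effect of members was -0.55 in wild type and -0.13 in the mutant.

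Cdk1, the kinase that starts mitosis, fell in both genotypes. It was 6.53, 6.30 and 6.22 on vehicle and 5.62, 6.32, 5.18, 5.44 and 5.08 on finasteride in wild type. In the mutant it was 7.42, 7.19 and 7.11 on vehicle and 6.51, 6.67, 6.66, 6.51 and 6.67 on finasteride. Wild-type finasteride library 2 overlapped the vehicle libraries, and the mutant groups were separate. The effects were -0.82 ± 0.21 (adjusted p = 0.00738) and -0.64 ± 0.21 (adjusted p = 0.0229). Under quantile normalization they were -0.40 and -1.10, and the call in both genotypes was lost. Rrm2, the ribonucleotide reductase subunit made for DNA synthesis, fell by 0.84 ± 0.17 and 0.51 ± 0.17. Mki67, the proliferation marker Ki-67, was lower in the mean effect at -1.22 ± 0.29, with -1.77 ± 0.41 in wild type and -0.67 ± 0.41 in the mutant.

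Pbk, Esco2, Clspn, Mcm10 and Cdc7, which are not on the list and were picked after their values were seen, fell in both genotypes. Pbk, a mitotic kinase, was 5.38, 5.10 and 5.09 on vehicle and 3.13, 4.86, 3.38, 3.54 and 2.79 on finasteride in wild type, and 7.19 to 7.22 and 5.37 to 6.13 in the mutant. Groups were separate for Pbk, with wild-type finasteride library 2 the highest of its group, as it was for Esco2 and Clspn. Esco2, which acetylates cohesin, fell by 1.65 ± 0.42 and 1.31 ± 0.42. Its wild-type groups overlapped, with finasteride library 2 at 4.62 and vehicle from 4.19. Clspn, a replication checkpoint mediator, had effects of -1.5 and -0.85, and Mcm10, a replication initiation factor, of -1.17 and -0.51. Cdc7, the kinase that fires replication origins, fell by 0.81 ± 0.14 and 0.42 ± 0.14. Its mutant groups overlapped, with vehicle from 7.82 and finasteride up to 7.83. Wild-type finasteride levels went down to 2.79 for Pbk, 2.41 for Esco2 and 2.80 for Clspn, below the mean of 3.32 needed for testing. Over the 11 libraries none of these genes kept the call in both genotypes.

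Smooth muscle and endothelial genes had many calls for the mean effect and few in both genotypes. Of 16 smooth muscle genes 1 was called higher in wild type and 12 in the mutant, beside 18.4% and 25.7% of all tested genes. The sign was positive in both genotypes in 14, while 32.5% of all tested genes had the same sign in either direction. In the mean effect 9 were higher, beside 10.8% of all tested genes, and none lower, with a median of 0.40. None passed over the 11 libraries or without those of high Svs2, where the medians were 0.37 and 0.35. The summed smooth muscle level was 16.68 to 17.03 and 16.73 to 17.42 on vehicle and finasteride in wild type, and 16.38 to 16.65 and 16.92 to 17.41 in the mutant. Des, the muscle intermediate filament desmin, rose in both genotypes. It was 13.08, 12.91 and 12.88 on vehicle and 13.83, 13.24, 13.22, 13.26 and 13.31 on finasteride in wild type. In the mutant Des was 12.99, 12.61 and 12.83 on vehicle and 13.38, 13.55, 13.34, 13.41 and 13.23 on finasteride. No groups overlapped, and the rise was 0.41 ± 0.13 and 0.57 ± 0.13.

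Of 18 endothelial genes 8 were higher in the mean effect, beside 10.8% of all tested genes, and none lower. The number higher was 1 over the 11 libraries and 1 without the libraries of high Svs2. Emcn was the sole member to rise in both genotypes, beside 0.86% of all tested genes. Opposite moves were seen in 6 of the 18, beside 20.1% of all tested genes. The list medians were -0.33 in wild type and 0.99 in the mutant. The summed endothelial level was 12.02 to 12.09 and 11.76 to 12.15 in wild type, and 11.75 to 11.84 and 12.35 to 12.81 in the mutant. Eln, which encodes elastin, rose by 1.0 ± 0.13 and 0.34 ± 0.13 in wild type and mutant. Mmp15, a membrane-bound metalloprotease, rose by 0.89 ± 0.11 and 0.37 ± 0.11. Both effects were larger in wild type (interaction -0.67 for Eln, adjusted p = 0.00669, and -0.52 for Mmp15, adjusted p = 0.0125). Eln and Mmp15 were the only members of their lists to rise in both genotypes, beside 0.86% of all tested genes. Opposite moves were seen in 10 of 26 fibroblast and matrix genes, beside 20.1% of all tested genes. They were seen in 7 of 18 metalloproteases and inhibitors. In wild type and mutant the medians were -0.43 and 0.55 for the first list, and -0.58 and 0.72 for the second. Wnt7b, a secreted Wnt ligand, rose by 0.68 ± 0.10 and 0.31 ± 0.10. Eln had a mutant effect of 0.10 under quantile normalization and lost its call under both scalings, and Mmp15 and Wnt7b lost theirs under median centring, with mutant effects of 0.24 and 0.18. Of the growth factors and receptors of the TGF-beta and BMP list, Tgfb2 fell by 0.48 ± 0.10 and 0.45 ± 0.10, and the receptor Bmpr1a by 0.32 ± 0.12 and 0.41 ± 0.12. Under quantile normalization the mutant effect of Bmpr1a was -0.24, and under both scalings its call was lost. In that list of 21, 4 were higher and 4 lower in the mean effect, beside 10.8% and 13% of all tested genes, with a median of 0.01, and none passed over the 11 libraries.

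Metabolic and protein quality lists gave few members that moved the same way. Acly, which makes cytosolic acetyl-CoA from citrate, fell by 0.24 ± 0.07 and 0.21 ± 0.07. Gpam, which starts glycerolipid synthesis, fell by 0.45 ± 0.16 and 0.73 ± 0.16. They were 2 of 21 fatty acid synthesis genes, beside 1.74% of all tested genes that fell in both genotypes. Lpl, the lipoprotein lipase, fell by 1.16 ± 0.18 and 0.55 ± 0.18. It was the only 1 of 12 adipocyte genes to fall in both genotypes, beside 1.74% of all tested genes. The medians of that list were -2.86 in wild type and 1.52 in the mutant. Opposite moves were seen in 5 of its 12 genes, beside 20.1% of all tested genes. Sucla2, a citrate cycle subunit, fell by 0.63 ± 0.08 in wild type and 0.29 ± 0.08 in the mutant. Of the proteasome, Psmd1 fell by 0.38 and 0.21 and Psmd12 by 0.19 and 0.24. These were 2 of 31 members, beside 1.74% of all tested genes. In the whole proteasome list 4 of 31 members were lower in the mean effect, a share of 12.9% that is near the 13% of all tested genes, and the median was -0.01. Shmt2, a mitochondrial one-carbon enzyme, rose by 0.72 ± 0.19 and 0.62 ± 0.19, and Bag3, a co-chaperone of heat shock proteins, by 1.06 ± 0.22 and 0.55 ± 0.22. Under quantile normalization Acly, Sucla2, Psmd1 and Psmd12 had mutant effects of -0.01, -0.16, -0.05 and -0.11 and lost the call in both genotypes, as did Lpl. Under median centring Bag3, Gpam and Psmd12 lost it. The mean effects of Shmt2, Lpl and Gpam were 0.67, -0.85 and -0.59 with all libraries and 0.37, -0.57 and -0.36 without those of high Svs2.

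Of 947 listed genes that were tested, 32 moved the same way in both genotypes, a share of 3.38% near the 2.61% of all tested genes. Genes that moved in opposite ways made up 20.1% of all tested genes. In the proximal luminal list 12 of 14 members moved in opposite ways, in nerve and glia 13 of 18, in endoplasmic reticulum folding 20 of 31 and in the integrated stress response 18 of 30. Among 12 B and plasma cell genes 9 were higher in the mean effect, beside 10.8% of all tested genes, with a median of 1.11, and none moved the same way in both genotypes; the list medians were -0.59 in wild type and 2.97 in the mutant.

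**Figure D4:**
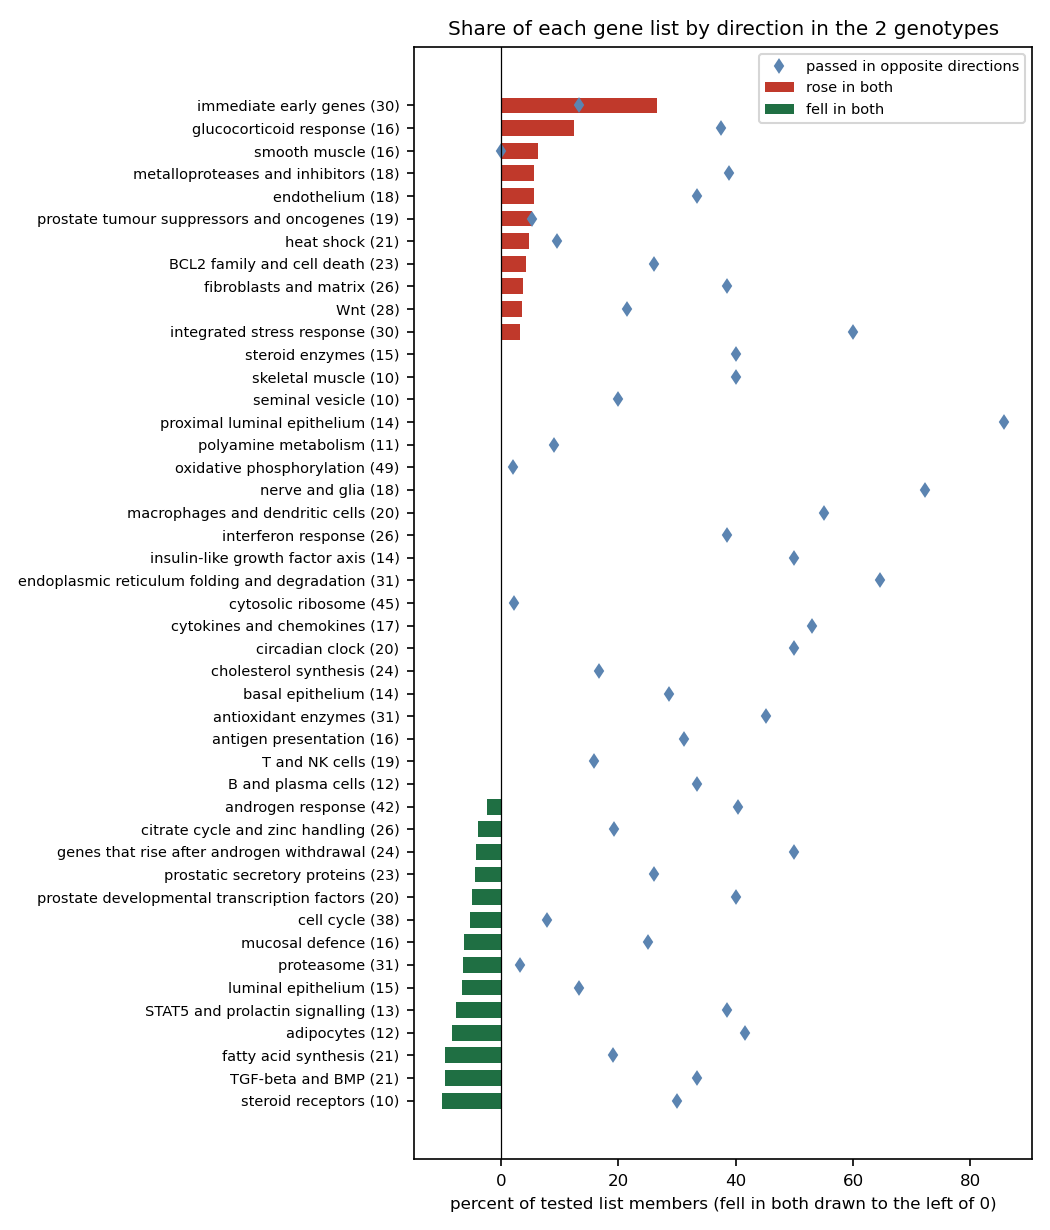
Share of each gene list with at least 10 members tested (horizontal axis, percent of members) that rose in both genotypes (bars to the right of 0), fell in both (bars to the left) or moved in opposite ways (diamonds), 1 row per list with the number tested in brackets. The immediate early genes have the longest bar of genes that rose, 8 of 30, and for many lists the diamond lies far beyond the bars.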

How the data were processed

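Prostate RNA was selected for poly-A tails and sequenced on an Illumina HiSeq2000 after TruSeq preparation, per the labels' protocols. The submitters' processing notes name CASAVA 1.8.2, the aligner TopHat, then Cufflinks, and both DESeq and DESeq2, with build mm9; the tool that made the table is not given in the sources used here. The table the authors deposited holds normalized values on a log2 scale, whose base was inferred from plausible totals. Depth is unknown, so no counting intervals are given.

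Groups came from the labels. For 16506 genes, limma 3.58.1 (R 4.3.3) fitted 1 mean per group (4 in all) to the log2 values, with a variance trend by expression level. Errors beside effects are moderated standard errors. Benjamini-Hochberg adjustment ran over all genes tested, with a threshold of 0.05. A library was called mixture-like where a weighted pair of other libraries in its group, each weight above 0.2, left a residual below 0.1 over genes at a log2 level of 8 or more; p-values are too small where libraries are not independent. The model was tested on simulated data. Alternatives were other normalizations, filters, pseudocounts (1 and 10), variance settings and left-out libraries.

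The 15 risers and 15 fallers with the largest smaller-of-2 genotype effect were named by rule, among genes moved the same way with a mean of at least 50 out of log2, no overlap in either genotype and no model symbol. The rule added up to 4 same-way members of each list, and Srd5a1, Srd5a2, Srd5a3, Pbsn and Fkbp5. The text names a subset, and other genes that moved the same way are said to be picked or singled out. Pgr15l was also picked after its values were seen. Jun, Cyr61 and Mki67 are list members named outside the rule, and the tissue markers were named apart from it. The members and lists were chosen with earlier results of these data known. Lists are described by counts and medians, with no set test; 1115 list entries were used, of which 5 were not in the table. Promoters were matched by symbol to RefSeq sequences of GRCm38.p6, found for 106 of 142 genes that rose and 213 of 288 that fell. Some items are not reported here.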

Additional observations from a re-analysis of the deposited data

Results flagged for a closer look

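Of 208 comparisons of 5 libraries of 1 group, 12 had a library far from the others by Dixon's test, which chance gives in about 1 in 20. The highest library stood apart for Srd5a1 in mutant finasteride 5 (7.16), Relb, Des, Asb2 and Tmem64 in wild-type finasteride 1 (8.32, 13.83, 8.96 and 12.40), Lingo1 in wild-type finasteride 3 (3.70) and Neil3 in wild-type finasteride 2 (4.11). The lowest stood apart for Srd5a2 and Bmpr1a in mutant finasteride 2 (6.91 and 10.91), Inpp5j in mutant finasteride 5 (7.58), Itih2 in wild-type finasteride 2 (7.68) and Prlr in wild-type finasteride 1 (12.31). Wild-type finasteride 1 has low Sbp, and mutant finasteride 2 has the lowest Svs2 of its group; their part in these values was not tested.

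For 19 named genes that moved the same way, the finasteride effect differed in size between genotypes (limma interaction, mutant minus wild type). Among genes that rose, the effect was larger in the mutant for Wbscr17 (1.63), Relb (0.70) and Ier3 (0.36). It was larger in wild type for Slc27a3 (-0.99), Sprr1a (-0.80), Eln (-0.67), Mmp15 (-0.52) and Wnt7b (-0.37).

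Among genes that fell, the fall was larger in the mutant for Fam115e (-1.32), Usp16 (-1.11), 9530002B09Rik (-1.09), Pgr15l (-1.04), Lingo1 (-0.95), Fam115a (-0.85), Dock3 (-0.76) and Tmem64 (-0.34). It was larger in wild type for Mme (1.33), Mcm10 (0.66) and Sucla2 (0.34).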

How the results depend on the processing

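Total counts of calls and the counts of genes higher or lower in the mean effect, or moved the same way, held within 1.5 times of those reported under quantile normalization, median centring, both pseudocounts, the filter on linear means, no variance trend, robust variance and without the Sbp-poor wild-type finasteride libraries (361 genes the same way, 120 up and 241 down, chosen after seeing the data), and with no filter except that 91 genes rose. An additive model called 1177 genes for the common effect (417 higher and 760 lower). Over 11 libraries the counts were 250 for the mean effect (72 and 178), 1437 in wild type, 3340 in the mutant, 39 the same way (7 and 32), 560 in opposite ways and 4843 for the interaction. Without the 6 libraries of high Svs2, an alternative chosen after seeing the data, they were 1155 (295 and 860), 1016, 3992, 35 (9 and 26), 327 and 4295. Both alternatives leave fewer samples. Adjusting the larger p left 35 (4 and 31).

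Leaving out 1 library at a time gave 2651 to 4584 genes for the mean effect (1151 to 2199 higher, 1484 to 2519 lower), 4482 to 7608 in wild type and 6358 to 8819 in the mutant. It gave 264 to 543 the same way (87 to 177 up, 175 to 366 down), 2482 to 4190 in opposite ways and 8344 to 10116 for the interaction. Without wild-type vehicle library 3, 1151 genes were higher and 87 rose the same way. Without wild-type vehicle library 1, 89 rose and 175 fell, and without mutant vehicle library 2 or 3, 87 rose. Of the 430, 144 kept the call without every single library, 235 under quantile normalization and 282 under median centring, which moved the median effect of all genes in the mutant from -0.01 to -0.14.

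Of mean effects that were not called, the sign turned for Srd5a1 under quantile normalization (-0.030), for Srd5a3 without the libraries of high Svs2 (0.092), and for Fkbp5 without those (0.14), without the Sbp-poor libraries (0.18) and without wild-type finasteride library 1 (0.010) or 5 (0.024), with a range of -0.19 to 0.024 over single libraries left out. Over the 11 libraries 51 of the 104 named genes lost the call for the mean effect, and without the libraries of high Svs2 37 did. The cause was not tested. The parts of the opposite count moved by more: quantile normalization and centring changed the split from 1308 rising in wild type and 2002 falling there to 1776 and 1292, and to 2174 and 1633. No paired analysis was possible because numbers in the titles run through the whole series and tie no library to one of another group. Unknown depth limits what can be said of genes near the expression threshold.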

Other observations

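Genes outside the lists and the rule for naming, picked after their values were seen, also moved the same way in both genotypes. The homeobox genes Hoxb5 and Hoxb6, which pattern the body axis, rose by 1.33 ± 0.30 and 1.21 ± 0.43 in wild type and by 1.10 ± 0.30 and 1.60 ± 0.43 in the mutant. Their levels in mutant finasteride library 2 were 6.31 and 7.41, within the range of mutant vehicle, and without the libraries of high Svs2 their mean effects were 0.61 and 0.73 instead of 1.22 and 1.40. Signalling genes that rose in wild type and mutant were Notch1, a receptor of cell fate decisions (0.57 and 0.36), Tgfa, a ligand of the epidermal growth factor receptor (0.40 and 0.41), and Spry1, an inhibitor of receptor tyrosine kinase signalling (0.39 and 0.43). Snai1, a repressor of epithelial genes, rose by 0.48 ± 0.18 and 0.50 ± 0.18, and had a mutant effect of -0.08 under quantile normalization. Angpt2, a vessel-destabilizing ligand, fell by 0.88 ± 0.29 in wild type and 1.47 ± 0.29 in the mutant; its mean effect was -1.18 with all libraries and -0.72 without those of high Svs2.

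Of genes that act in DNA repair, Rad54b fell (-0.71 ± 0.24 in both genotypes), as did Brip1 (-0.54 and -0.49) and Neil3 (-1.07 and -0.92, with wild-type finasteride library 2 inside the vehicle range). The mean effect of Rad54b was -0.46 without the libraries of high Svs2. Usp16, a deubiquitinase of histone H2A, fell by 0.49 ± 0.09 in wild type and 1.60 ± 0.09 in the mutant. The histone genes Hist1h1c and Hist1h2bc rose by 0.56 and 0.59 in wild type and 0.38 and 0.65 in the mutant; they belong to a multigene family whose members may share reads. Pik3r1, the regulatory subunit of phosphoinositide 3-kinase, fell by 0.80 ± 0.13 and 0.59 ± 0.13, the desmosome-associated Perp by 0.69 ± 0.14 and 0.90 ± 0.14, and Hsf2, a heat shock transcription factor, by 0.58 ± 0.09 and 0.71 ± 0.09. Under quantile normalization the calls in both genotypes of Rad54b, Brip1, Neil3, Pik3r1, Angpt2 and Snai1 were lost, with wild-type effects of -0.27, -0.07 and -0.53 for the first 3 and a mutant effect of -0.37 for Pik3r1, and under median centring those of Notch1, Hist1h1c and Snai1 were. The largest mean effect among genes that fell was that of the unnamed A630095E13Rik (-2.94 ± 0.42), whose wild-type vehicle libraries ran from 14.09 to 16.31. Capn8, a calpain protease, had effects of -1.84 ± 0.30 and -2.3 ± 0.30.

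Across the 16506 tested genes the wild-type and mutant effects had a Pearson correlation of -0.56, given as a description, since genes are not independent replicates and each library enters all of them.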
